A study of Homo sapiens with 2 samples.

Results

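Mucin-type glycosylation and sialylation enzymes were taken as the protein-coding genes outside chromosome 13 whose symbols begin with GALNT, GCNT, B3GALT, B3GNT, B4GALT, B4GALNT, ST3GAL, ST6GAL (which takes in ST6GALNAC) or ST8SIA, or are FUT plus a number. This rule found 76 of the 31845 genes in the table, of which 52 had at least 50 counts in at least 1 library. RNA sequencing compared 1 library of olaparib-resistant Capan-1 cells with 1 library of parental Capan-1 cells. The resistant line was derived by raising olaparib, a PARP inhibitor, in steps between 15 nM and 128 uM, and the labels do not say whether it is a clone or a mixed population. Capan-1 cells come from a pancreatic adenocarcinoma and carry mutant BRCA2, in both groups, whereas the cell type field of both labels reads breast cancer. The columns named for the line itself were read as parental and the remaining columns, headed RCA, as resistant. Every direction below rests on that reading.

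Mucin-type glycosylation takes place in the Golgi and starts when a GALNT enzyme places N-acetylgalactosamine (GalNAc) on serine or threonine. Galactose added to it gives the core 1 structure, and GCNT enzymes branch the cores. B3GNT and B4GALT enzymes lengthen the branches with alternating sugars, and fucosyltransferases and sialyltransferases cap them. Pancreatic adenocarcinomas are known for short sialylated mucin glycans and for the sialyl Lewis a antigen, which is built by B3GALT5, an ST3GAL enzyme and FUT3 in turn. Several of the families also act on N-glycans, glycolipids or proteoglycans.

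The resistant library held 34507480 counts and the parental library 34572931, and the 76 enzymes took 0.227% and 0.246% of them. With 1 library per group there was no replicate and no test, so ratios describe these libraries and their intervals (exact conditional, 95%) cover counting error only. A gene was called if its scaled ratio reached 2-fold in either direction and if 1 of the libraries held 50 or more of its counts. The 6 ductal and epithelial markers, among them EPCAM and KRT19, summed to 189380 resistant and 126593 parental counts. Of the mammary markers in the table, GATA3 had 486 and 1884 counts, TRPS1 81 and 119, ESR1 18 and 8, and PGR 1 and 4. Markers of other cell types were mostly sparse. The 5 leukocyte markers summed to 608 and 375 counts, of which CD68 made up 582 and 351, with CD3E at 1 and 1. The 2 endothelial markers summed to 3 and 3. The 5 fibroblast markers summed to 580 and 133 counts, of which LUM made up 523 and 35, with COL1A1 at 38 and 97, PDGFRB at 6 and 1, DCN at 5 and 0 and COL3A1 at 8 and 0. Their part in the results was not tested, and in bulk RNA fewer cells with a transcript cannot be told apart from less of it per cell.

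Of the 52 enzymes at the count minimum, 3 were called higher (5.77%) and 5 lower (9.62%) in resistant cells. Among all protein-coding genes outside chromosome 13 the shares were 5.13% higher and 8.61% lower (in either direction 15.4% of the enzymes and 13.7% of the coding genes), so the enzymes as a whole were called about as often as other genes. ST6GALNAC5, ST6GALNAC4 and GALNT9 were higher, and GCNT3, FUT8, B3GALT5, GALNT4 and B3GNT5 were lower. ST6GALNAC5 was the 1 enzyme past 4-fold. The other 44 were within 2-fold, although the counting intervals of 48 of the 52 excluded equal levels. The median log2 ratio of the 52 was -0.28, while their mean was 0.01. At the same minimum the median was 0.06 for all genes and 0.09 for protein-coding genes outside chromosome 13. ST6GALNAC5, far above the rest, accounts for part of the gap between the mean and median of the 52. Removing the trend of the ratio with row length (explained below) brought the median of the 52 to -0.08 and that of all genes to 0.14. The split of calls depended on the scaling. Upper quartile scaling gave 5 higher and 3 lower, and removal of the length trend 6 higher and 2 lower. The shares of coding genes under these alternatives were not calculated.

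**Figure D1:**
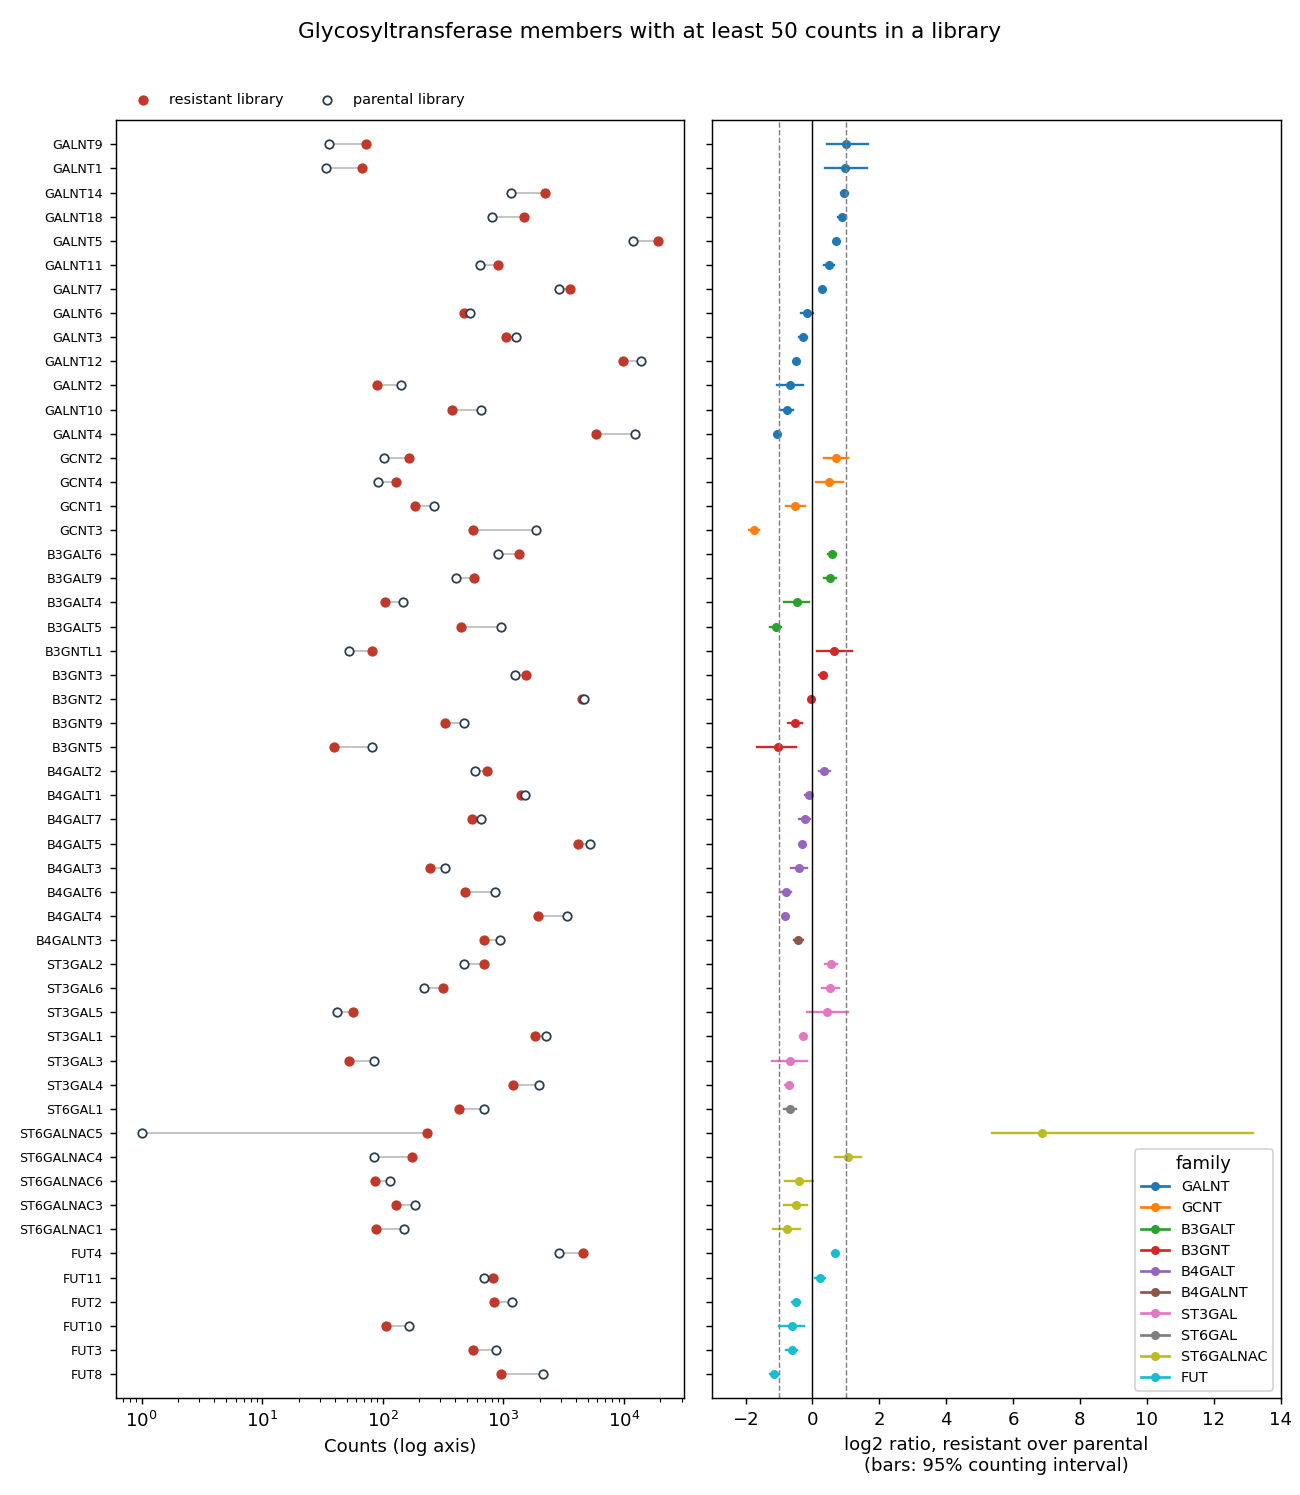
Counts of the 52 enzymes with at least 50 counts in a library (left, log axis, filled points resistant, open points parental) and their log2 ratios with 95% counting intervals (right, coloured by family, dashed lines at 2-fold). ST6GALNAC5, with 231 resistant counts and 1 parental count, stands apart on the right, and GCNT3 has the lowest ratio.

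Each row's count divided by its FPKM value gives the length that the authors used, and this length bears on how the enzymes can be read. Among 3625 well-covered coding genes with at least 4 annotated transcripts, it matched the length of a single GENCODE transcript to within 0.5% in 91.8%, that of the longest transcript in 8.33% and the mean over transcripts in 0.414%. The FPKM values imply a larger total than the table holds, since the table's counts make up 40.5% of it in the resistant and 39.0% in the parental library. Whether a count covers the whole gene or only the transcript of that length is not given in the sources used here. A ratio compares the same row in both libraries, but FPKM values of different genes are comparable only where the length is that of a full transcript. Over all genes the fitted log2 ratio also followed this length, at 0.11 for 300 bases and -0.27 for 5000 bases, which is the trend removed in the alternative named above. Of the 52 enzymes, 20 had a length of at least 90% of their longest transcript and 24 one under 50%. Among the called enzymes, ST6GALNAC5 and GALNT4 had full-length rows and B3GNT5 had 66.7%, while GALNT9, ST6GALNAC4, B3GALT5, FUT8 and GCNT3 had 21.95%, 22.7%, 22.2%, 14.1% and 10.2%. By annotation, the length matched a protein-coding transcript for ST6GALNAC5, GALNT4 and FUT8. It matched a non-coding processed transcript for GCNT3, ST6GALNAC4 and B3GNT5, a retained intron transcript for GALNT9 and no transcript for B3GALT5. Whether the ratios of these last enzymes describe the coding transcript was not tested.

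**Figure D2:**
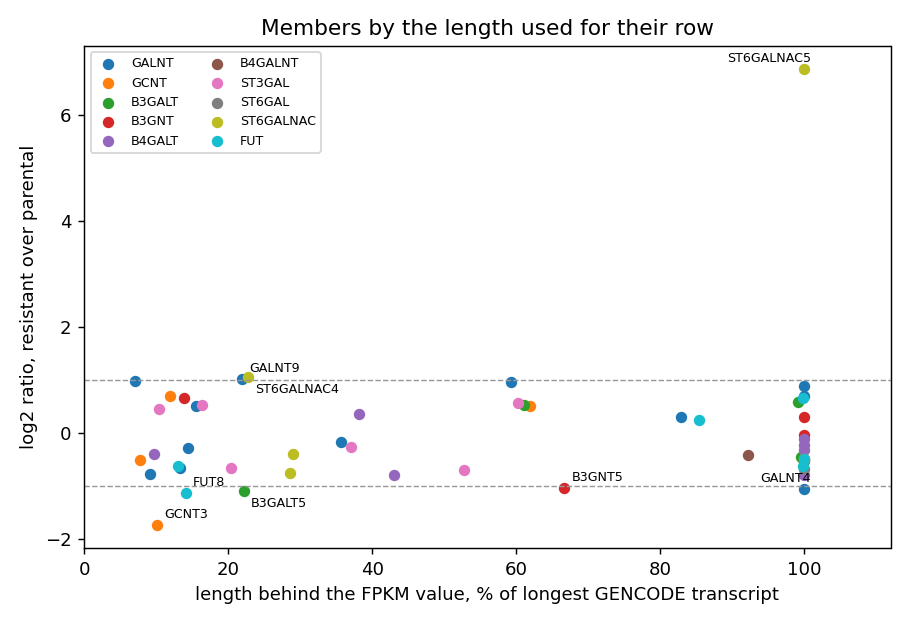
Log2 ratio (vertical) of the 52 enzymes at the count minimum against the length behind their FPKM value as a percentage of the longest GENCODE transcript (horizontal), coloured by family, with called enzymes named. The highest ratio, ST6GALNAC5, comes from a full-length row, and the lowest, GCNT3, from a row of 10.2%.

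Upstream sequence is shown for 3 called enzymes whose counts differed most or that head a known pathway step. The letters are RefSeq's, build GRCh38.p14, from the first base of a 250-base window to the base before the annotated start, and capitals mark motif matches.
ST6GALNAC5, chr1:76867230-76867479, + strand: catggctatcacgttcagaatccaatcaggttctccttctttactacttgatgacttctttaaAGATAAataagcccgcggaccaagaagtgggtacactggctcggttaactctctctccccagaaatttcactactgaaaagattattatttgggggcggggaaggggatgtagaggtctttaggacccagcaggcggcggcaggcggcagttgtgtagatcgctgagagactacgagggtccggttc
GCNT3, chr15:59611533-59611782, + strand: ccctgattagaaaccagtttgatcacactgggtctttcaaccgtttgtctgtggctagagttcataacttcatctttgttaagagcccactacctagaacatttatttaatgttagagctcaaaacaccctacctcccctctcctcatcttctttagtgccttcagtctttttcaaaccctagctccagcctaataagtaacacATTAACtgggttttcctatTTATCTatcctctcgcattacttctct
B3GALT5, chr21:39612690-39612939, + strand: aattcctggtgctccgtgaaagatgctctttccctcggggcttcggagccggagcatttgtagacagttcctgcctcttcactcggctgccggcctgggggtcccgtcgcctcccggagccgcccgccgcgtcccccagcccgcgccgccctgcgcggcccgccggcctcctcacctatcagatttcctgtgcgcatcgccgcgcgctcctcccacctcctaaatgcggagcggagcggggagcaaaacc
The motif of CDX factors (TTTATG), the half-site of HNF1 (GTTAAT) and the motif of GATA factors (letters AGATAA) were searched on both strands, and no match in these windows overlaps another. ST6GALNAC5 held 1 GATA match, GCNT3 a GATA and an HNF1 half-site match, both on the opposite strand, and B3GALT5 no match. Of 35116 windows of this length, 9.64% held the CDX motif, 6.23% the HNF1 half-site and 9.17% the GATA motif. Of the 53 enzymes with a window, 1 held the CDX motif, 4 the HNF1 half-site and 6 the GATA motif. For each enzyme only the first window listed under its symbol was used, whereas all 35116 windows were counted. These sets were therefore not built the same way. The windows differed in base composition, with 11 CG dinucleotides in ST6GALNAC5, 2 in GCNT3 and 28 in B3GALT5, against a median of 22 over the enzymes and 11 over all windows. A match describes the letters only.

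The GALNT enzymes, which start the chain, held 57.5% of the family counts in resistant and 54.2% in parental cells. Of 19 in the table, 13 reached the minimum, with 7 above and 6 below a log2 ratio of 0 and a median of 0.30. The median lay between 0.28 and 0.37 over the other scalings and was 0.51 with the length trend removed, but at a minimum of 10 counts, with 15 enzymes, it was -0.17, so the family had no stable direction. GALNT5 was the most counted enzyme in resistant cells, with 19237 counts against 11957 in parental cells, a ratio of 1.62 (interval 1.58 to 1.66). In parental cells GALNT12 led instead, with 9717 resistant and 13697 parental counts, a ratio of 0.714 (interval 0.696 to 0.733). These counts are not divided by length, and per length GALNT12 led in both libraries, as the FPKM levels given further on show.

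GALNT4, which prefers peptides that already carry GalNAc, had 5832 resistant and 12284 parental counts, 2.09-fold lower. The read-through gene POC1B-GALNT4 on the same strand had 5798 and 12174 counts, almost the same numbers, so the reads of these genes may be shared and GALNT4 is uncertain, while POC1B had 188 and 269. The log2 ratio of GALNT4 was -1.07, with -0.99 under upper quartile scaling and -0.71 with the length trend removed, both within 2-fold. GALNT10 and GALNT7, other enzymes that follow up on GalNAc-bearing peptides, had log2 ratios of -0.78 and 0.30. GALNT9, a member with little measured activity of its own, had 73 resistant and 36 parental counts, 2.04-fold higher (interval 1.35 to 3.13). Its log2 ratio of 1.01 lay at the threshold, and was 0.99 with TMM over coding genes outside chromosome 13 and 0.94 with a prior of 5 counts, where it was no longer called.

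Just short of 2-fold were GALNT1, with 67 resistant and 34 parental counts (log2 ratio 0.97), GALNT14, with 2208 and 1150 (0.95), and GALNT18, with 1477 and 803 (0.89). GALNT1 and GALNT14 passed 2-fold under upper quartile scaling, and GALNT18 and GALNT5 with the length trend removed. GALNT11 had a log2 ratio of 0.51. GALNT6, GALNT3 and GALNT2, which also start chains, had log2 ratios of -0.17, -0.28 and -0.66. GALNT1 and GALNT2 are the broadly expressed members of the family, but their rows had lengths of 7.07% and 13.3% of their longest transcripts, so 67 and 89 resistant counts say little about their rank.

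Core branching enzymes differed most at GCNT3, the mucin-type enzyme that makes core 2 and core 4 branches. GCNT3 had 554 counts in resistant and 1875 in parental cells, 3.36-fold lower (ratio 0.297, interval 0.270 to 0.327). The deposited FPKM values were 12.99 in resistant and 42.2 in parental cells, for a row whose length matched a non-coding transcript. GTF2A2, which overlaps it on the opposite strand, had 6432 and 3345 counts and so differed the other way. GCNT1, the core 2 enzyme best known from leukocytes, had 186 and 267 counts. GCNT2, which makes the branches of the I antigen, had 165 and 102, and GCNT4 129 and 91. GCNT7 had 3 and 1. The log2 ratios of the 4 measured members ran between -1.75 and 0.70, so the family had no common direction.

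The B3GALT family was led by B3GALT6, a proteoglycan linker enzyme, with 1341 resistant and 898 parental counts (log2 ratio 0.59). B3GALT5, which builds the type 1 chain that carries Lewis a structures, had 441 and 954 counts, 2.15-fold lower (ratio 0.465, interval 0.415 to 0.521). Its antisense RNA, B3GALT5-AS1, had 148 and 113 counts. With the length trend removed, B3GALT5 had a log2 ratio of -0.91 in place of -1.10. B3GALT9, called B3GNT10 in GENCODE, had 572 and 402 counts, and B3GALT4, an enzyme of ganglioside synthesis, 105 and 146. B3GALT2 had 0 and 9.

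Among the B3GNT enzymes, B3GNT2, the main enzyme of poly-N-acetyllactosamine chains, had 4489 resistant and 4658 parental counts (log2 ratio -0.04). That value was above 0 under upper quartile scaling, the FPKM values and length trend removal. B3GNT3, which extends core 1, had 1528 and 1244 counts, a log2 ratio of 0.31. B3GNT5, which starts the lacto-series glycolipids, had 39 and 82 counts, 2.09-fold lower (interval of the ratio 0.318 to 0.709). It was within 2-fold under 4 alternatives, with log2 ratios between -0.97 and -0.87. B3GNT9 had 326 and 473 counts and B3GNTL1 82 and 52. B3GNT6, the core 3 enzyme of normal gut mucosa, had 2 and 12 counts, B3GNT7 23 and 17, B3GNT4 16 and 7 and B3GNT8 6 and 2, all too few to call.

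All 7 B4GALT enzymes were within 2-fold, and 6 of the 7 had log2 ratios below 0. Apart from B4GALT7, they add galactose to N-acetylglucosamine or to glucosylceramide. B4GALT4 had 1920 resistant and 3380 parental counts (log2 ratio -0.81) and B4GALT6, a lactosylceramide enzyme, 483 and 846 (-0.80). B4GALT5, the other lactosylceramide enzyme, had 4171 and 5251 counts (-0.32). B4GALT3, B4GALT7, a proteoglycan linker enzyme, and B4GALT1 had log2 ratios of -0.40, -0.23 and -0.11, and B4GALT2 one of 0.36. The family median of -0.32 went to -0.06 with the length trend removed, where B4GALT1 had 0.17. B4GALNT3, which makes the LacdiNAc unit, had 696 and 938 counts (-0.42). B4GALNT2, the Sda antigen enzyme, had 2 and 0.

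Sialyltransferases numbered 19, with 12 at the minimum, 2 called higher and 0 lower, beside 5.13% higher and 8.61% lower among coding genes, and a median log2 ratio of -0.33. ST6GALNAC5, which places sialic acid on the GalNAc of gangliosides and is known mainly from brain, had 231 counts in resistant and 1 in parental cells. The ratio was 233, with an interval of 41.3 to 9224 because of the single parental count. The FPKM values were 0.724 and 0.003, so the gene also stayed low on a per-length scale in resistant cells. Of coding genes outside chromosome 13 at the count minimum, 7 had a ratio at least as high, ST6GALNAC5 included.

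The other ST6GALNAC enzymes did not share a difference of this size. ST6GALNAC4, which adds a sialic acid to sialylated core 1, had 176 resistant and 85 parental counts, 2.08-fold higher (interval 1.60 to 2.73). ST6GALNAC1, the sialyl-Tn enzyme, had 88 and 151 counts (log2 ratio -0.76). ST6GALNAC3 had 128 and 183, ST6GALNAC6 86 and 114 and ST6GALNAC2 8 and 21. ST6GALNAC5 and ST6GALNAC3 lie on chromosome 1 and ST6GALNAC4 and ST6GALNAC6 on chromosome 9, and within each of these pairs the ratios went opposite ways.

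All 6 ST3GAL enzymes, which cap galactose, were within 2-fold. ST3GAL4 had 1192 resistant and 1959 parental counts (log2 ratio -0.71), ST3GAL3 52 and 84 (-0.67) and ST3GAL1, the core 1 cap, 1842 and 2236 (-0.27). ST3GAL2 had 688 and 471 counts (0.56), ST3GAL6 315 and 220 (0.53) and ST3GAL5, the first enzyme of the ganglioside pathway, 57 and 42 (0.44). ST6GAL1, which sialylates N-glycans, had 426 and 687 counts (-0.68), and ST6GAL2 2 and 3. ST8SIA enzymes, which add sialic acid to sialic acid, were all under the minimum. ST8SIA1 had 7 and 0 counts, ST8SIA4 7 and 11, ST8SIA5 0 and 4, ST8SIA2 0 and 2 and ST8SIA6 1 and 0.

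Fucosyltransferases had the lowest median of the families with at least 3 measured members, at -0.55 over 6. It lay between -0.57 and -0.48 over the other scalings, and was -0.37 with the length trend removed and -0.13 over all 10 members without a minimum. FUT8, the enzyme of core fucose on N-glycans, had 950 counts in resistant and 2115 in parental cells, 2.21-fold lower (ratio 0.452, interval 0.418 to 0.488). FUT4, which makes Lewis x structures, went the other way with 4550 and 2889 counts (log2 ratio 0.66), and reached 1.06 with the length trend removed. FUT2, the secretor enzyme of H antigen, had 828 and 1170 counts (-0.49), FUT10 107 and 166 (-0.62) and FUT11 812 and 693 (0.24). FUT1 had 8 and 0 counts and FUT9 8 and 0, too few to call.

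FUT3, the Lewis enzyme, had 557 resistant and 862 parental counts (log2 ratio -0.62), whereas its near copies FUT5 and FUT6 had 7 and 20 and 6 and 1. The coding sequences of FUT3 and FUT5 were 93.9% identical, those of FUT3 and FUT6 90.9% and those of FUT5 and FUT6 93.3%, with identical runs of up to 272 bases between FUT3 and FUT6. Of 16 gap-free stretches of 60 bases along FUT3, 4 were the same in all 3 genes. The stretch in which they differed most, at 15 positions, is shown from GENCODE 29 transcripts, with those positions in capitals, to show how few letters tell the genes apart.
FUT3, coding bases 181 to 240: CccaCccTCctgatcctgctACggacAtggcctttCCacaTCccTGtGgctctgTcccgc
FUT5, coding bases 220 to 279: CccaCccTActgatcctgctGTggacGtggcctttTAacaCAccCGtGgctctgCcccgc
FUT6, coding bases 178 to 237: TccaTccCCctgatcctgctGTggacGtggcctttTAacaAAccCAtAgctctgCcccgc
How reads matching more than 1 of these genes were assigned is not given in the sources used here, so the share of FUT3 against FUT5 and FUT6 is uncertain.

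Read along the sialyl Lewis a route, B3GALT5, ST3GAL4, ST3GAL3 and FUT3 had log2 ratios of -1.10, -0.71, -0.67 and -0.62, and ST3GAL6 one of 0.53. B3GALT5 alone of these passed 2-fold, and it was within 2-fold, at -0.91, with the length trend removed. As a percentage of the longest transcript, the rows of B3GALT5, ST3GAL4, ST3GAL3, FUT3 and ST3GAL6 had 22.2%, 52.7%, 20.4%, 99.9% and 16.3%. Of the 24 enzymes under the minimum, 16 had fewer than 10 counts in both libraries and the highest count was 26, in GALNTL5, which had 16 and 26. The rest of the GALNT family in this range were GALNT16, with 0 and 10 counts, GALNTL6, with 9 and 6, GALNT13, with 7 and 0, GALNT15, with 1 and 6, and GALNT8, with 1 and 3.

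On the per-length FPKM scale, levels were compared between enzymes only where the length was at least 90% of the longest transcript. GALNT12 led this set with 41.7 FPKM in resistant and 56.4 in parental cells, followed in resistant cells by GALNT5 with 36.6 and 21.8. B3GNT2 had 19.09 and 18.996, GALNT4 12.7 and 25.6, B4GALT5 10.4 and 12.5, FUT4 8.84 and 5.38 and B3GNT3 8.07 and 6.30. In parental cells GALNT4 came before GALNT5 and B3GNT2, but its reads may be shared with POC1B-GALNT4, so its place is uncertain.

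An overlapping gene was annotated for 40 of the 52 enzymes, and since the use of strand in counting is not given, reads of overlapping genes cannot be told apart. The enzymes lie on 20 chromosomes, so each was set beside up to 10 measured coding genes on either side. Neighbour medians ran between -0.62, at B4GALT4, and 0.87, at GALNT9, and 28 of the 52 enzymes had the sign of their neighbours. GALNT4 and FUT8, both lower, had neighbour medians of -0.59 and -0.40, and B3GNT5 one of -0.33. GCNT3 had -0.02, ST6GALNAC5 -0.16, ST6GALNAC4 0.23 and B3GALT5 0.26. ST6GALNAC5 and ST6GALNAC4 were above all 20 of their neighbours, which reached 0.95 and 1.03, and GCNT3 and B3GALT5 were below all 20 of theirs, which went down to -1.52 and -1.09. For ST6GALNAC4, at 1.05, and B3GALT5, at -1.10, the gap to the nearest neighbour was small. GALNT9, at 1.01, was above 15 of its 20 neighbours, and GALNT4 and FUT8 were each below 16 of 20. Coding genes that overlap an enzyme were not left out of its neighbours. POC1B-GALNT4, with a log2 ratio of -1.06, overlaps GALNT4 and may share its reads.

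**Figure D3:**
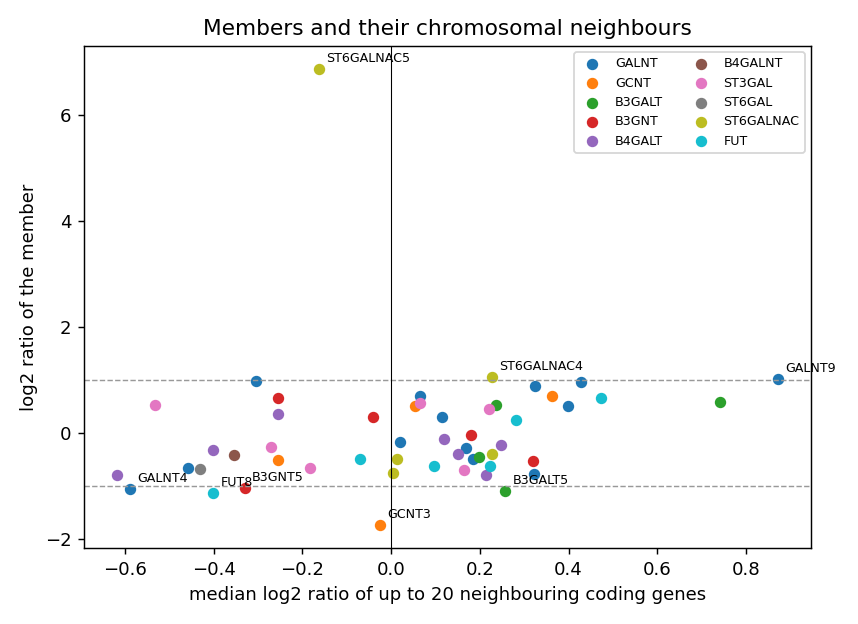
Log2 ratio of each of the 52 enzymes (vertical) against the median log2 ratio of up to 20 neighbouring coding genes at the count minimum (horizontal), coloured by family, with called enzymes named. GALNT9 lies at the right end with neighbours at 0.87, and ST6GALNAC5 and GCNT3 lie at -0.16 and -0.02 on the horizontal axis.

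Among the lists of genes that work with these enzymes, the mucins that carry the glycans had the median furthest from 0. Of 17 listed, 8 reached the minimum, with 2 higher, 5 lower and a median log2 ratio of -1.45. That median lay between -1.48 and -1.04 over the scalings, priors, FPKM values and length trend removal. For this list and those below, the shares among protein-coding genes outside chromosome 13 were 5.13% higher and 8.61% lower. The rows of MUC5AC, MUC3A and MUC1 had 10.7%, 10.1% and 43.4% of their longest transcripts, and the other called mucins had over 90%. MUC4 had 4152 resistant and 18494 parental counts, MUC5AC 1169 and 4622, MUC1 1399 and 3572, MUC5B 235 and 703 and MUC3A 15 and 126, all lower. MUC6 had 358 and 107 and MUC13 3568 and 1486, both higher. Mucin genes hold repeats, and reads in them may be shared. C1GALT1, the core 1 enzyme, had 681 and 1344 counts (log2 ratio -0.97), just within 2-fold, and its chaperone C1GALT1C1 1895 and 1567.

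Sugar donors showed smaller differences. Of the sialic acid supply genes 0 of 5 passed 2-fold, with GNE, the first enzyme, at 11166 resistant and 17260 parental counts (log2 ratio -0.62), and SLC35A1, the CMP-sialic acid carrier, at 1208 and 815 (0.58). Of the UDP-sugar supply genes 0 of 14 did, with a median of 0.40, PGM3 at 0.81 and UAP1L1 at -0.90. Of 8 fucose supply genes SLC35C1, the GDP-fucose carrier, was lower with 21 and 50 counts, and the median was -0.25. The sialidases NEU3 and NEU1 had 0.43 and 0.10.

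Other glycan enzymes held single large differences. MGAT4A, which starts a branch on N-glycans, had 6881 resistant and 1611 parental counts, 4.30-fold higher, while the N-glycan list's median was -0.37 over 8 genes. A4GALT, which starts the globo-series glycolipids, had 65 and 28 counts, 2.34-fold higher. Of 6 measured sulfotransferases, GAL3ST1 was 2.60-fold higher and CHST6 and CHST4, which sulfate N-acetylglucosamine, 2.58-fold and 2.25-fold lower. GM2A, the activator of ganglioside breakdown, had 38 and 105 counts, 2.74-fold lower, and the glycolipid list had a median of -0.33 over 6 genes. UGCG, the glucosylceramide synthase, had a log2 ratio of -0.77. Of 9 listed transferases outside the families, 6 were measured, with a median of 0.33.

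Golgi tethering genes had a median of -0.41 over 16, with COG3, which lies on chromosome 13, 2.14-fold and GORASP1 2.05-fold lower. COG6, at -0.84, lies on chromosome 13 too. Under upper quartile scaling, the FPKM values and length trend removal, 1 gene of the list was called lower in place of 2. With TMM over coding genes outside chromosome 13 there were 3. Lectins, which read the finished glycans, differed in both directions, with 3 higher and 1 lower of 7 measured. LGALS4, a gut galectin, had 1553 resistant and 386 parental counts and LGALS1 7417 and 2136, whereas LGALS9 had 55 and 283. LGALS2 had 61 and 27 counts.

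**Figure D4:**
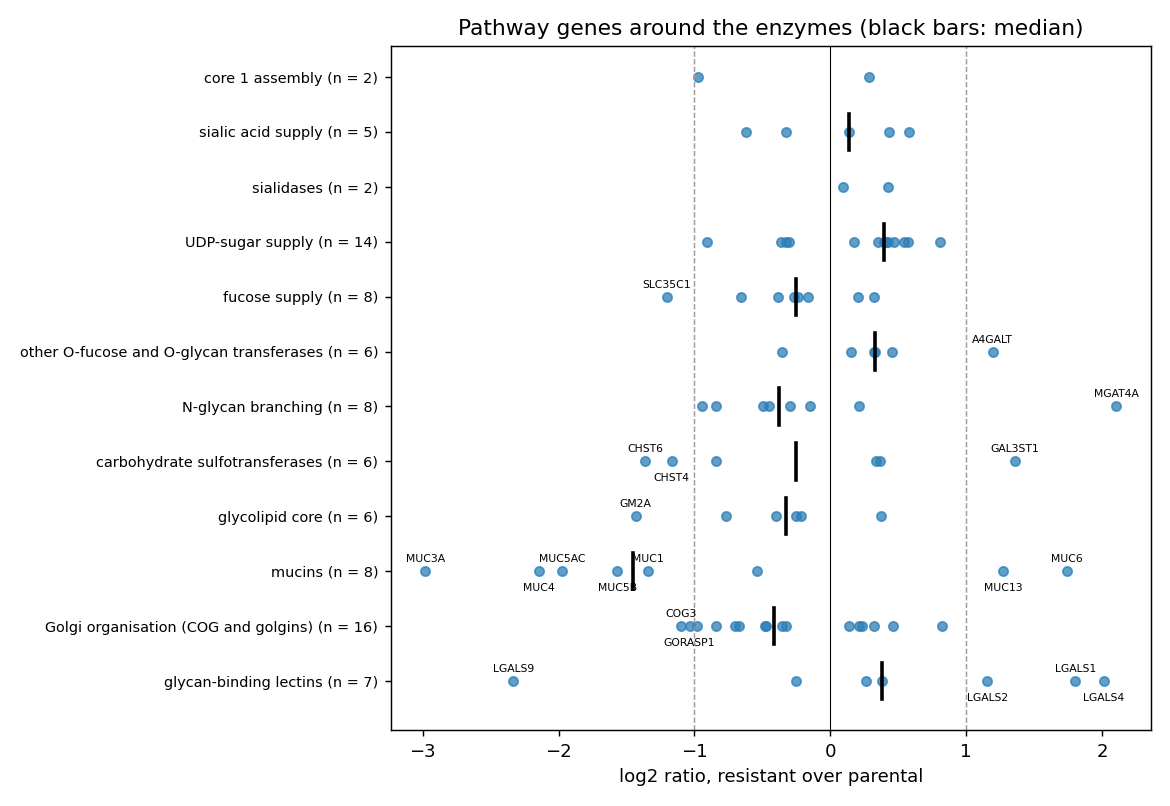
Log2 ratios of pathway genes at the count minimum by list, with black bars for medians of lists of at least 3 genes, dashed lines at 2-fold and names for genes past it. The mucin list spreads from MUC3A at -2.98 to MUC6 at 1.74, while no gene of the sialic acid and UDP-sugar supply lists passes 2-fold.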

How the data were processed

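Per the labels' protocols, RNA came from Trizol extraction and the ScriptSeq libraries keep strand. The counts are whole numbers per Ensembl gene as deposited, and the FPKM columns are the authors' own, per the file headers. The submitters' processing notes name RSEM 1.2.3 and hg19 without a role, and neither the annotation nor the use of strand is given in the sources used here. Symbols came from a gene name table (29536 matches) and GENCODE 29 (29719), which describes another build (GRCh38). Its coordinates served to find overlapping and neighbouring genes and are not printed. Counts were scaled with TMM (edgeR 4.0.16, R 4.3.3), with a prior of 1 count in each log2 ratio (resistant over parental). No test was possible with 1 library per group. Intervals are exact conditional (Clopper-Pearson) 95% intervals. Every enzyme is named, and from each list the genes past 2-fold, up to 4, or else the 2 largest; further genes were chosen after their values were seen. The members and lists were chosen with earlier results of these data known. A gene of the lectin list is not reported here. The calculations were tested on simulated data. Alternatives covered scaling (DESeq2 1.42.0 size factors, upper quartile, totals), prior, count minimum, fold size, FPKM with a pseudocount of 0.01, and row length. Python 3.11.15, numpy 2.4.6, pandas 2.3.3, scipy 1.17.1, statsmodels 0.14.6, biopython 1.88 and matplotlib 3.10.9 were used.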

Additional observations from a re-analysis of the deposited data

How the results depend on the processing

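The numbers of enzymes at least 2-fold higher and lower were 3 and 5 and followed the settings closely, because several lay at the threshold. They were 5 and 3 under upper quartile scaling, 6 and 2 with the length trend removed, 5 and 4 with the deposited FPKM values, 2 and 5 with TMM over coding genes outside chromosome 13, and 2 and 4 with a prior of 5 counts. A minimum of 10 counts gave 4 and 9, one of 200 counts 1 and 4, no minimum 13 and 13, and a size of 4-fold 1 and 0. The shares of coding genes called, 5.13% higher and 8.61% lower, were calculated at the main setting only. For the alternatives in this paragraph, counts of enzymes therefore cannot be set beside those of other genes. Restrictions by row length and by overlap were chosen after seeing the data. Rows of at least 50% of the longest transcript gave 1 and 2 of 28 enzymes, and enzymes with no overlapping gene 1 and 0 of 12, in both cases with fewer genes by construction. The median log2 ratio of -0.28 lay between -0.30 and -0.08 over the scalings, priors, FPKM values and length trend removal, the mean was 0.01, and the median of all genes shifted by under 0.1 in each. Of 416 values of single enzymes under these alternatives, 4 changed sign, in B3GNT2 and B4GALT1, and 16 crossed 2-fold, in 9 enzymes. ST6GALNAC5, ST6GALNAC4, GCNT3 and FUT8 stayed past 2-fold in all 8. Depth limits the 24 enzymes under 50 counts. No paired analysis was possible because each group has 1 library.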
